A study of Mus musculus with 187 samples.

Results

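Glo1 and Alad are 2 of the 36558 genes in the deposited mouse heart tables, and both were taken by their symbols alone. Glo1 (ENSMUSG00000024026) encodes glyoxalase 1 and lies on the reverse strand of chromosome 17, at chr17:30584936-30626871 in the mouse build GRCm38. Alad (ENSMUSG00000028393) encodes aminolevulinate dehydratase and lies on the reverse strand of chromosome 4, at chr4:62509169-62519918. Both are protein-coding genes in the GENCODE annotation.

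Glyoxalase 1 uses glutathione to detoxify methylglyoxal, a reactive by-product of glycolysis, and glyoxalase 2, encoded by Hagh, completes the reaction. Aminolevulinate dehydratase makes porphobilinogen, an early step in the synthesis of haem, the iron-holding group of haemoglobin and of the respiratory cytochromes. Some inbred mouse strains are known to carry an extra copy of the chromosome segment that holds Glo1 or Alad, and C57BL/6J is known as a strain without either duplication. Copy number was not measured in these files, and the values below are RNA levels.

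The hearts came from the Hybrid Mouse Diversity Panel, a collection of classical inbred strains and recombinant inbred strains. Every mouse received 8 weeks of chow followed by 8 weeks on a diet rich in fat and sucrose, and was 16 weeks old at collection. The libraries, 98 male and 89 female, covered the strains of 5 groups, and 78 strains had both sexes. There were 29 inbred strains (55 libraries), 45 BXD strains bred from C57BL/6J and DBA/2J (79 libraries), 20 AXB and BXA strains bred from C57BL/6J and A/J (33 libraries), 6 CXB strains (12 libraries) and 6 BXH strains bred from C57BL/6J and C3H/HeJ (8 libraries). A recombinant inbred strain is homozygous at nearly every locus for the allele of one parent, so the strains of a family can be set against the pair of parents they came from. The CXB strains are known to descend from the By sublines of BALB/c and C57BL/6, which were not analysed here, so they were set against the related strains BALB/cJ and C57BL/6J, and these stand in for their parents below. Most strains were represented by 1 mouse of each sex and only 3 strains had 3 libraries, so the replicate error used here is the spread between the few libraries of a strain, pooled over strains. Whether the 3 libraries of such a strain came from separate mice is not given in the sources used here, and p-values measure only the spread between these libraries.

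Library depth ranged from 29 to 80.4 M estimated counts with a median of 45.4 M, and the 13 genes of the mitochondrial DNA took 20.7% to 61.3% of them. Cardiomyocyte markers (Myh6, Tnnt2, Tnni3, Actc1 and Ryr2) had a mean level between 11.93 and 12.87 log2 CPM, a count scaled to a common library total, in all libraries. In 15 libraries, from 13 strains, the effective gene lengths implied by the counts and the TPM, which are scaled to transcript length as well, stood apart from the rest. The median shift of gene length was 0.062 to 0.134 on the log2 scale in these libraries and 0.026 to 0.053 in the others, over 10452 genes. None of the libraries of C57BL/6J, DBA/2J, A/J, BALB/cJ or C3H/HeJ was among the 15, and values that such libraries decide are marked or given without them as well. In bulk heart RNA, fewer cells of a type and less RNA per cell cannot be told apart.

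Reads of Glo1 can be shared with a processed pseudogene, Gm13443 (ENSMUSG00000075391), a copy of the spliced Glo1 message inserted on the forward strand of chromosome 2 at chr2:35340409-35340963. Its 555 bases differ from the 555-base coding sequence of Glo1 at 3 positions in the transcripts of the GENCODE annotation. Of the 506 windows of 50 bases in the coding sequence, 397, or 78.5%, were identical in both. Estimated counts of Glo1 were not whole numbers in any library and ranged from 1772.7 to 16088.7. Of the 12171 stretches of 31 bases in the Glo1 transcripts, 454, or 3.73%, occurred in Gm13443 on the same strand and 81, or 0.666%, in Nsl1, the next in number. Short stretches were also shared with other genes, 3869 in all, and AC165962.3 and AC165962.4, which lie inside Glo1, shared 388 and 161 on the opposite strand. Alad shared no such stretch with another gene, its counts were whole in every library, and they ranged from 815 to 10030.

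Both genes were expressed in every heart. Per length, the median level was 54.5 TPM for Glo1, with a range of 23.5 to 149.6, and 77.5 TPM for Alad, with a range of 23.7 to 162.1. For comparison between strains, counts were scaled to CPM with TMM factors, and a strain level is the mean over sexes of log2 CPM, printed back in CPM. The Glo1 strain level ran from 45.1 CPM in KK/HlJ to 209.9 CPM in BXA12/PgnJ, a 4.66-fold range. The Alad strain level ran from 25.2 CPM in AXB19a/PgnJ to 150.2 CPM in BXD51/RwwJ, a 5.95-fold range, which was 4.64-fold without the 15 libraries that stood apart.

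Strain accounted for most of the variation in both genes. Across the 78 strains with both sexes, the standard deviation (SD) within a strain was 0.13 log2 units for Glo1 against 0.52 between strains, so that 94.1% of the variance lay between strains. For Alad the SD was 0.23 within and 0.79 between strains, with 92.1% of the variance between strains. The median of the 15942 genes tested was 29.4%, and the 2 genes stood at percentiles 99.2 and 98.7 of that distribution. Without the libraries that stood apart, the shares were 95.9% and 96.9% and the median of all genes was 36.5%. The strain effect passed edgeR's quasi-likelihood test with Benjamini-Hochberg adjustment for Glo1 (adjusted p = 8.1e-39) and for Alad (adjusted p = 3.2e-33), in a test that 72.2% of all genes passed.

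Among the 29 inbred strains, Glo1 formed a lower run of 19 strains and an upper run of 10. The lower run extended from 45.1 CPM in KK/HlJ, through 50.4 in NOD/ShiLtJ and 54.8 in FVB/NJ, to 73.4 in 129X1/SvJ and 74 in RIIIS/J. The upper run began at 113.9 CPM in I/LnJ, 1.54-fold above RIIIS/J, and this was the largest step between strains adjacent in the order. The largest step, 0.62 log2 units here, was 0.43 in males alone and 0.37 on log2(TPM + 1). It continued with C3H/HeJ at 122.1, C57BLKS/J at 123.9, AKR/J at 130.4, DBA/2J at 135.6, CBA/J at 137.6 and SEA/GnJ at 142.3 CPM. Above these, A/J stood at 164.4, CE/J at 186.2 and LP/J at 195.7 CPM. The median step between adjacent inbred strains was 0.038 log2 units, less than the within-strain SD of 0.13, so neighbours in the order were not resolved. From end to end, the lower run spanned 0.72 and the upper run 0.78 log2 units. LP/J, AKR/J, SEA/GnJ, LG/J and BUB/BnJ rested on 1 library each.

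Alad fell into more than 2 levels in the same strains. A lower group of 5 strains, KK/HlJ, SM/J, C57BL/6J, BTBR T<+> tf/J and C57BLKS/J, lay between 25.3 and 31.2 CPM. The largest step, 1.52-fold, separated C57BLKS/J from BUB/BnJ at 47.5 CPM. C58/J, LP/J, NZB/BlNJ, 129X1/SvJ, NOD/ShiLtJ, PL/J and FVB/NJ followed between 58.1 and 66.8 CPM. After a further step of 1.24-fold, the 16 strains from SWR/J at 82.8 CPM to MA/MyJ at 119.4 CPM made up the rest. RIIIS/J was above this step, and MA/MyJ the highest strain, only with libraries that stood apart. Without these, RIIIS/J was at 58.3 CPM and MA/MyJ at 95.7 CPM, so that 15 strains remained above the step with C3H/HeJ, at 109.9 CPM, the highest. The 1.24-fold step is 0.31 log2 units against a within-strain SD of 0.23 for Alad, and neighbours in the order inside each level were not resolved. The levels follow the steps and were drawn after the values were seen.

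**Figure D1:**
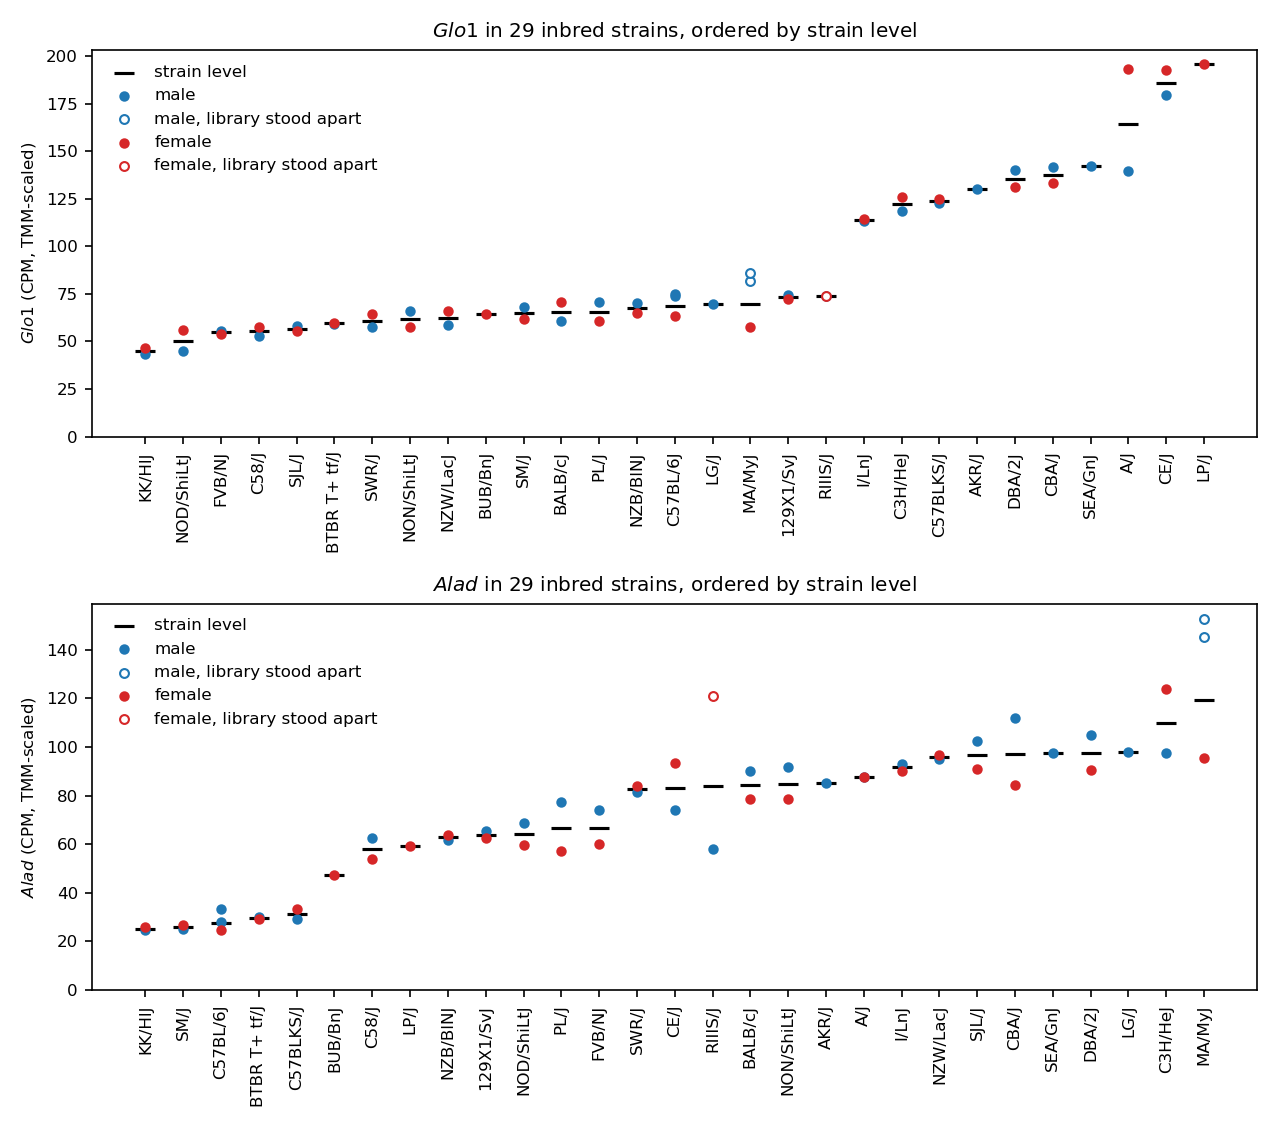
Glo1 and Alad in 29 inbred strains, ordered by strain level on the x axis, with CPM after TMM scaling on the y axis. Each point is 1 library coloured by sex, open points are libraries that stood apart, and black bars are strain levels. Glo1 rises by 1.54-fold between RIIIS/J and I/LnJ, and Alad by 1.52-fold between C57BLKS/J and BUB/BnJ.

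Among the inbred strains, a high level of one gene was not always paired with a high level of the other. C57BLKS/J had a high Glo1 level (123.9 CPM) with a low Alad level (31.2 CPM), whereas BALB/cJ had a low Glo1 level (65.7 CPM) with a high Alad level (84.2 CPM). KK/HlJ was the lowest inbred strain for both genes, and DBA/2J, A/J and C3H/HeJ were in the upper run of both. Within the inbred strains, the strain effect passed edgeR's quasi-likelihood test with Benjamini-Hochberg adjustment for Glo1 (adjusted p = 1.8e-33) and Alad (adjusted p = 5.3e-22), as it did for 60.6% of genes tested.

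The parent strains, which are among the inbred strains ordered above, are given here by library. In C57BL/6J, against which all 4 families were set, Glo1 was at 74 and 74.9 CPM in the males and 63.2 CPM in the female. DBA/2J was at 139.99 CPM in the male and 131.2 CPM in the female, C3H/HeJ at 118.4 and 125.95 CPM, and A/J at 139.7 and 193.3 CPM. BALB/cJ was at 60.8 CPM in the male and 70.9 CPM in the female. Every library of DBA/2J, C3H/HeJ and A/J was thus above every library of C57BL/6J, and those of BALB/cJ overlapped them. With 2 or 3 libraries a strain, a gene can separate in this way without a strain difference. The share of all genes that did so was not counted.

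Against C57BL/6J, Glo1 was 1.91-fold higher in DBA/2J (log2 0.93 ± 0.12 SE, adjusted p = 3.8e-09, edgeR's quasi-likelihood test with Benjamini-Hochberg adjustment), a comparison in which 10.1% of genes passed. The same test gave 2.35-fold in A/J (log2 1.24 ± 0.12, adjusted p = 1.7e-13), where 7.87% of genes passed. It gave 1.72-fold in C3H/HeJ (log2 0.78 ± 0.12, adjusted p = 6.4e-07), where 9.22% passed. In BALB/cJ the difference was -0.11 ± 0.13 on the log2 scale and did not pass (adjusted p = 0.77), in a comparison that 8.81% of genes passed. The A/J male and female differed by 0.47 log2 units, and the A/J difference was 0.97 without the female and 1.46 without the male. On the TPM scale the Glo1 differences were larger, with log2 1.44 in DBA/2J, 1.51 in A/J and 1.17 in C3H/HeJ (limma on log2(TPM + 0.1)), and the direction and the call were kept. All 4 comparisons share the C57BL/6J libraries. The genes called in them, 1607 in DBA/2J, 1254 in A/J, 1404 in BALB/cJ and 1470 in C3H/HeJ, numbered 2559, 2103, 2168 and 2363 when the libraries that stood apart were left out of the fit.

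Alad was higher in each of the other parents than in C57BL/6J. The C57BL/6J libraries held 28.2, 33.3 and 24.9 CPM, against 105.04 and 90.7 CPM in DBA/2J and 87.7 CPM in both A/J libraries. BALB/cJ held 90.3 and 78.5 CPM, and C3H/HeJ held 97.4 CPM in the male and 123.8 CPM in the female. No library of C57BL/6J overlapped those of another parent for Alad, with the same limit of few libraries and no count over all genes. The difference was 3.41-fold in DBA/2J (log2 1.77 ± 0.21, adjusted p = 6.5e-11), 3.07-fold in A/J (log2 1.62 ± 0.21, adjusted p = 2.0e-09), 2.94-fold in BALB/cJ (log2 1.56 ± 0.21, adjusted p = 6.2e-09) and 3.87-fold in C3H/HeJ (log2 1.95 ± 0.21, adjusted p = 1.5e-12), by edgeR's quasi-likelihood test with Benjamini-Hochberg adjustment.

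Some markers of heart compartments did not overlap between these libraries either. The mean of the adipose markers was -1.43 to -0.61 log2 CPM in C57BL/6J, and higher without overlap in DBA/2J (-0.27 to 0.15), A/J (-0.44 to 0.18) and C3H/HeJ (-0.4 to 0.54), whereas that of BALB/cJ (-1.56 to -0.22) overlapped. Blood markers, which include the haem enzyme gene Alas2, stood at a mean of 5.63 to 7.19 log2 CPM in C57BL/6J, above this at 7.69 to 8.71 in C3H/HeJ and below it at 4.61 to 5.38 in BALB/cJ. Cardiomyocyte markers were at 11.96 to 12.12 log2 CPM in DBA/2J and 12.24 to 12.55 in C57BL/6J, and they overlapped in the other parents, as atrial markers did in all 4. With blood and adipose levels as covariates, the Glo1 difference was 0.96 in DBA/2J, 1.24 in A/J and 0.84 in C3H/HeJ, and the Alad difference 1.79, 1.62 and 2.01 in the same parents and 1.53 in BALB/cJ, all on the log2 scale and all past edgeR's quasi-likelihood test. The part of the cardiomyocyte markers in the DBA/2J differences was not tested.

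In the BXD strains, Glo1 reached levels near one parent or the other with few strains between them. The 25 strains nearer C57BL/6J ranged from 63.9 CPM in BXD45/RwwJ to 93.5 CPM in BXD19/TyJ. The 20 strains nearer DBA/2J ranged from 115.6 CPM in BXD5/TyJ to 169.5 CPM in BXD24/TyJ-Cep290<rd16>/J, whose only library stood apart. Without such libraries the highest was BXD9/TyJ, by its female at 151.95 CPM. The step between BXD19/TyJ and BXD5/TyJ was 1.24-fold, and BXD19/TyJ was the strain closest to the midpoint of the parents, 96.5 CPM. Both BXD19/TyJ libraries, at 86.6 and 100.8 CPM, stood apart in their gene lengths, and without such libraries the step was 1.44-fold, from BXD64/RwwJ at 80 CPM to BXD5/TyJ. Strains above both parents numbered 9, or 6 without the libraries that stood apart. Strains below both numbered 6, at 63.9 CPM or more beside 68.7 CPM in C57BL/6J, a gap within the within-strain SD. Within the BXD family the strain effect passed for Glo1 (adjusted p = 3.8e-29) and Alad (adjusted p = 2.2e-27) by edgeR's quasi-likelihood test with Benjamini-Hochberg adjustment, as it did for 48.5% of genes.

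Alad in the BXD strains was again near one parent or the other. The 21 strains nearer C57BL/6J ranged from 26.6 CPM in BXD38/TyJ to 50.8 CPM in BXD19/TyJ, and the 24 nearer DBA/2J ranged from 84.5 CPM in BXD15/TyJ to 150.2 CPM in BXD51/RwwJ, whose only library stood apart. All but BXD9/TyJ (50 CPM) and BXD19/TyJ in the lower group were at or below 34.2 CPM. In BXD9/TyJ, the male, whose library stood apart, was at 70.6 CPM and the female at 35.3 CPM. Without the libraries that stood apart, the largest step was 2.39-fold, from BXD9/TyJ at 35.3 to BXD15/TyJ at 84.5 CPM, with 20 strains below and 22 above, and the highest level was 109.97 CPM in BXD69/RwwJ.

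The AXB and BXA strains formed 2 separate runs of Glo1. The 13 strains nearer C57BL/6J ranged from 65.2 CPM in BXA1/PgnJ to 79.3 CPM in BXA7/PgnJ. AXB19/PgnJ, AXB19a/PgnJ and AXB19b/PgnJ, which share a line number in their names, were counted as separate strains. All were nearer C57BL/6J for both genes, and how closely they are related is not given in the sources used here. The 7 strains nearer A/J were BXA4/PgnJ at 140.9, AXB6/PgnJ at 152.3, AXB5/PgnJ at 176.1, AXB15/PgnJ at 180.3, AXB12/PgnJ at 184.1, AXB8/PgnJ at 185.1 and BXA12/PgnJ at 209.9 CPM. The step between the runs was 1.78-fold. Alad was at 25.2 to 30.7 CPM in 9 strains, and at 72.9 to 117.1 CPM in 10 strains. AXB6/PgnJ stood between, at 52.4 CPM, on the A/J side of the midpoint of 49.3 CPM, and its only library stood apart. In this family the strain effect passed edgeR's quasi-likelihood test with Benjamini-Hochberg adjustment for Glo1 (adjusted p = 2.2e-28) and Alad (adjusted p = 3.8e-25), against 21.1% of genes. That share is 3370 genes, and 7005 genes passed without the libraries that stood apart and 1781 on log2(TPM + 1) with limma.

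In the CXB family, Glo1 was at 137.9 CPM in CXB12/HiAJ and at 151.7 CPM in CXB4/ByJ, above BALB/cJ at 65.7 CPM and C57BL/6J at 68.7 CPM, which did not pass the test between them. The male and female were at 144.7 and 131.3 CPM in CXB12/HiAJ and at 135.6 and 169.6 CPM in CXB4/ByJ, of which the CXB4/ByJ female stood apart. The other 4 strains ranged from 70.8 CPM in CXB13/HiAJ, whose libraries at 68.9 and 72.7 CPM lay within the range of C57BL/6J, to 89.7 CPM in CXB7/ByJ, whose only library stood apart. Without such libraries the low strains ended at 79 CPM in CXB11/HiAJ, and the step to CXB4/ByJ was 1.72-fold rather than 1.54-fold. Alad was at 26.3 CPM in CXB12/HiAJ, near C57BL/6J, and at 64.7 to 110.1 CPM in the remaining 5 strains, of which CXB7/ByJ, the lowest, rested on 1 library that stood apart. The strain effect within CXB passed edgeR's quasi-likelihood test with Benjamini-Hochberg adjustment for both genes (adjusted p = 5.0e-13 for Glo1 and 8.7e-11 for Alad), as for 13.1% of genes.

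The 6 BXH strains were divided evenly for Glo1. BXH8/TyJ was at 71.3, BXH19/TyJ at 74.2 and BXH9/TyJ at 80.6 CPM, and BXH22/KccJ was at 120.99, BXH6/TyJ at 129.7 and BXH20/KccJ at 176.4 CPM. For Alad, BXH19/TyJ at 29.1 CPM and BXH20/KccJ at 37.7 CPM were nearer C57BL/6J, and the other 4 strains, at 86.3 to 102.1 CPM, were nearer C3H/HeJ. Only BXH6/TyJ and BXH8/TyJ had both sexes, so the test within this family compared these strains alone. Glo1 differed between them (adjusted p = 1.8e-06, edgeR's quasi-likelihood test with Benjamini-Hochberg adjustment), as did 2.84% of genes, and Alad, at 100.9 and 86.3 CPM, did not pass (adjusted p = 0.86). The Glo1 difference did not pass on log2(TPM + 1) or log2(TPM + 0.1) (limma, adjusted p = 0.23 and 0.25).

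**Figure D2:**
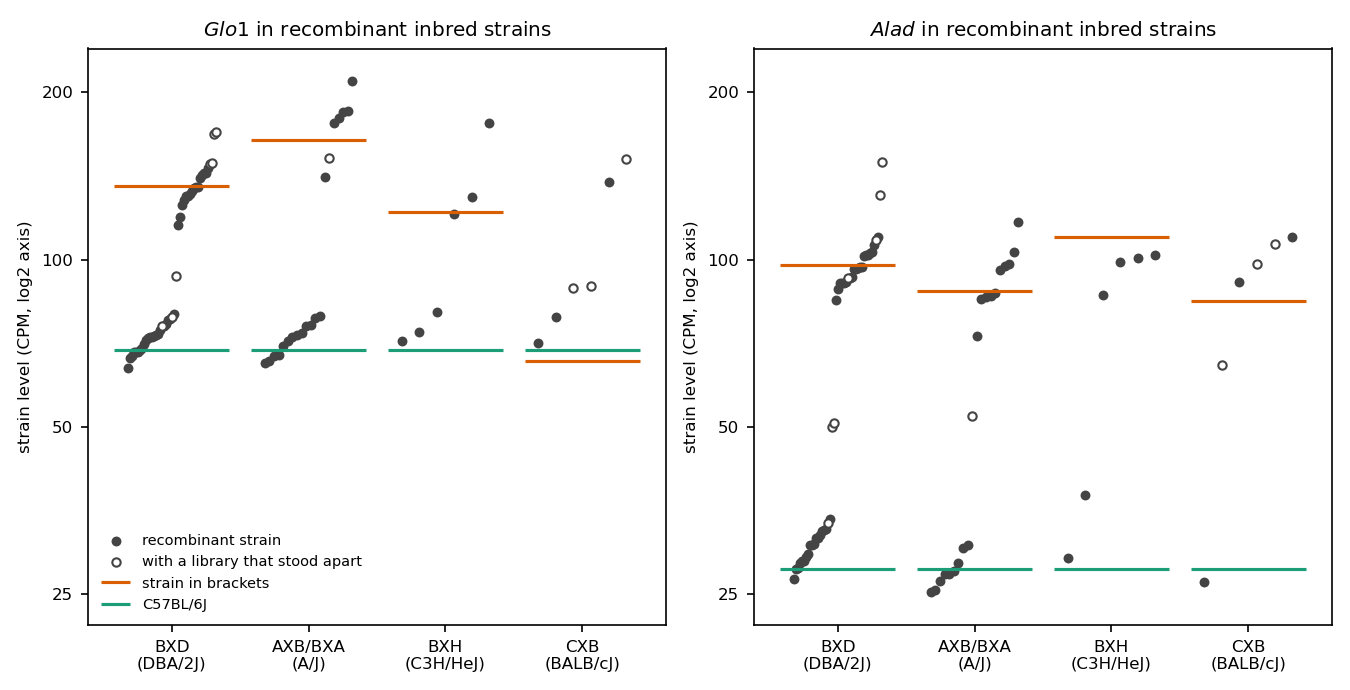
Strain levels of Glo1 and Alad in the recombinant inbred families, in CPM on a log2 axis, with families on the x axis and the strain they were set against in brackets, which is the other parent except in CXB. Each point is 1 strain, open points are strains with a library that stood apart, and the green and orange lines are C57BL/6J and the strain in brackets. Strains gather near one line or the other, except for Glo1 in CXB, where both lines are low and 2 strains reach 137.9 and 151.7 CPM.

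The levels of the 2 genes were combined in every way among the recombinant strains. In the BXD family, 10 strains were nearer DBA/2J for both genes, 10 for Glo1 only, 14 for Alad only and 11 for neither. In the AXB and BXA strains the counts nearer A/J were 5 for both, 2 for Glo1 only, 6 for Alad only and 7 for neither. AXB19/PgnJ, AXB19a/PgnJ and AXB19b/PgnJ were counted apart among those nearer for neither. In the BXH strains they were 2, 1, 2 and 1 in the same order, nearer C3H/HeJ. A strain high for one gene could therefore be low for the other, as in AXB12/PgnJ, with Glo1 at 184.1 CPM and Alad at 25.4 CPM.

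The choice of unit moved a few strains across the midpoint of their parents, whereas leaving out the libraries that stood apart moved none of the strains that remained. In those 15 libraries the effective length of Glo1 was shifted by 0.07 to 0.48 log2 units, and that of Alad by -0.04 to 0.04. In the other libraries the shift of Glo1 ranged from -0.15 to 0.33, with 0.33 and 0.26 in the male and female of KK/HlJ and 0.19 and 0.29 in those of NOD/ShiLtJ, the pair of strains with the lowest Glo1 levels. The part of these shifts in the low levels was not tested. On the TPM scale, which divides by that length, 19 rather than 20 BXD strains were nearer DBA/2J for Glo1, with BXD24/TyJ-Cep290<rd16>/J on the other side, and 5 rather than 7 AXB and BXA strains were nearer A/J, with AXB6/PgnJ and BXA4/PgnJ on the other side. For Alad on this scale, AXB6/PgnJ and CXB7/ByJ were nearer C57BL/6J, as was AXB6/PgnJ with library totals. The single libraries of BXD24/TyJ-Cep290<rd16>/J, AXB6/PgnJ and CXB7/ByJ were among the 15, whereas those of BXA4/PgnJ were not.

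**Figure D3:**
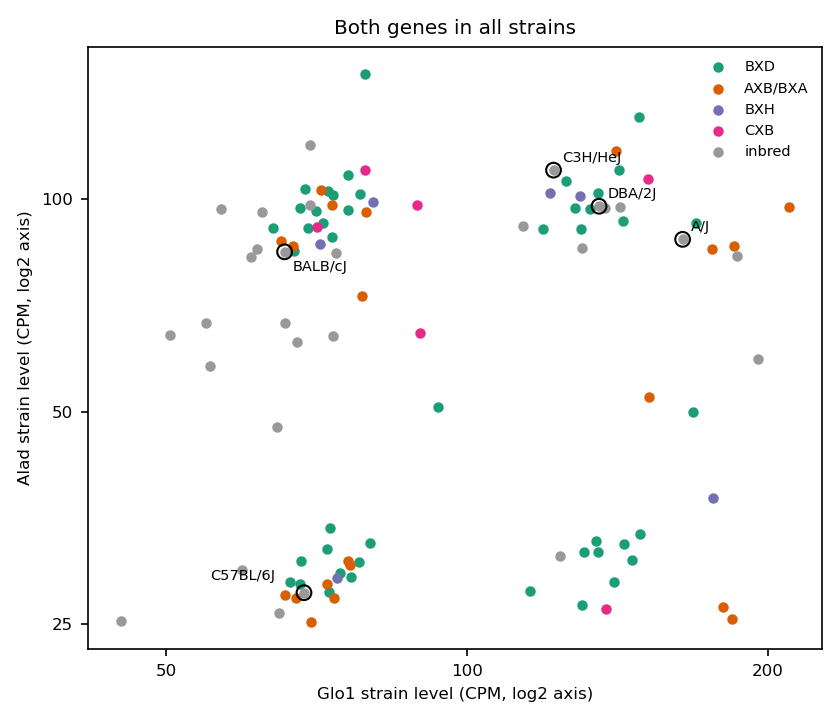
Glo1 strain level on the x axis against Alad strain level on the y axis, both in CPM on log2 axes, for all strains coloured by family. All 4 corners of the plot are filled, as in the BXD family, with 10, 10, 14 and 11 strains.

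The pseudogene Gm13443 separated the libraries into 2 classes. Its estimated count was under 10 in 94 libraries, with a highest value of 7.8, and over 100 in 93 libraries, from 123.6 to 1626, with none in between. Its share of the reads given to both genes was at most 20%. In the BXD family, all 20 strains with counts over 100 were those nearer DBA/2J for Glo1 and all 25 with counts under 10 were those nearer C57BL/6J. The match was also complete in the AXB and BXA strains (7 and 13 strains) and in the BXH strains (3 and 3). In the CXB family the 2 strains with counts over 100 were CXB12/HiAJ and CXB4/ByJ, the pair with high Glo1. Since reads are shared between the 2 sequences, the count of Gm13443 is not independent of that of Glo1.

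The inbred strains did not keep this match. Gm13443 counts were over 100 in 23 of the 29 strains, and Glo1 in these ranged from 45.1 to 195.7 CPM. The 6 strains with counts under 10 were 129X1/SvJ, C57BL/6J, NON/ShiLtJ, NZB/BlNJ, RIIIS/J and SM/J, and their Glo1 level ranged from 61.7 to 74 CPM. BALB/cJ held 347.5 and 366.6 Gm13443 counts in the male and female at a low Glo1 level, and A/J held 551.8 and 1406.2. When the Gm13443 counts were added to those of Glo1, a choice made after seeing the data, the assignment of strains to parents did not change in the BXD, AXB and BXA, or BXH families.

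**Figure D4:**
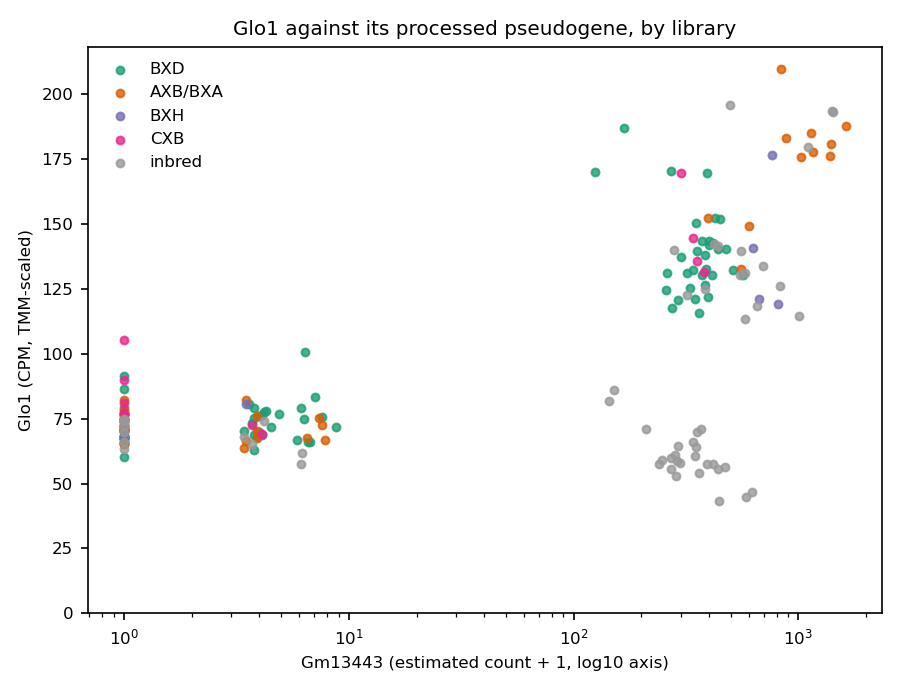
Estimated counts of Gm13443 plus 1 on a log10 x axis against Glo1 in CPM after TMM scaling on the y axis, for every library coloured by family. The 94 libraries at the left hold under 10 counts and the 93 at the right over 100. Inbred libraries at the right extend over low and high Glo1 levels, whereas those of the recombinant strains at the right are high.

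The 2 genes whose strain levels were most like those of each gene lay beside it on the chromosome. For Glo1, these were Btbd9, a BTB-domain protein gene 8.4 kb away (r = 0.83 over all strains), and Dnah8, an axonemal dynein heavy chain gene that overlaps Glo1 on the opposite strand (r = 0.81). They were followed by Gm13443 on chromosome 2 (r = 0.67), BC004004 (r = 0.64) and Ppil1, a peptidylprolyl isomerase gene (r = 0.64), of which BC004004 and Ppil1 lie over 1 Mb away on chromosome 17. For Alad, they were Hdhd3, a hydrolase-domain gene 5.7 kb away (r = 0.96), and Bspry, a SPRY-domain gene 11.9 kb away (r = 0.92), then Gng10 (r = 0.61) and Ptgr1 (r = 0.54), 3467.3 and 3522.0 kb away on chromosome 4, and Gm18551 on chromosome 12 (r = 0.59). These correlations are descriptions, since the strains share haplotypes, depth and scaling. Over all 15941 other genes, the central 95% of r lay between -0.25 and 0.26 for Glo1 and between -0.20 and 0.20 for Alad.

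The most negative correlations also lay on the same chromosomes. Cdc26, a subunit gene of the anaphase-promoting complex 100.5 kb from Alad, had r = -0.69 with Alad, and Hmga1, a chromatin architecture gene 3021.3 kb from Glo1, had r = -0.62 with Glo1. Other tested genes within 1 Mb were less alike. Of the 20 near Glo1, the next after Btbd9 and Dnah8 was Tbc1d22b (r = 0.39), and of the 16 near Alad, the next after Hdhd3 and Bspry was Rgs3 (r = 0.46).

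**Figure D5:**
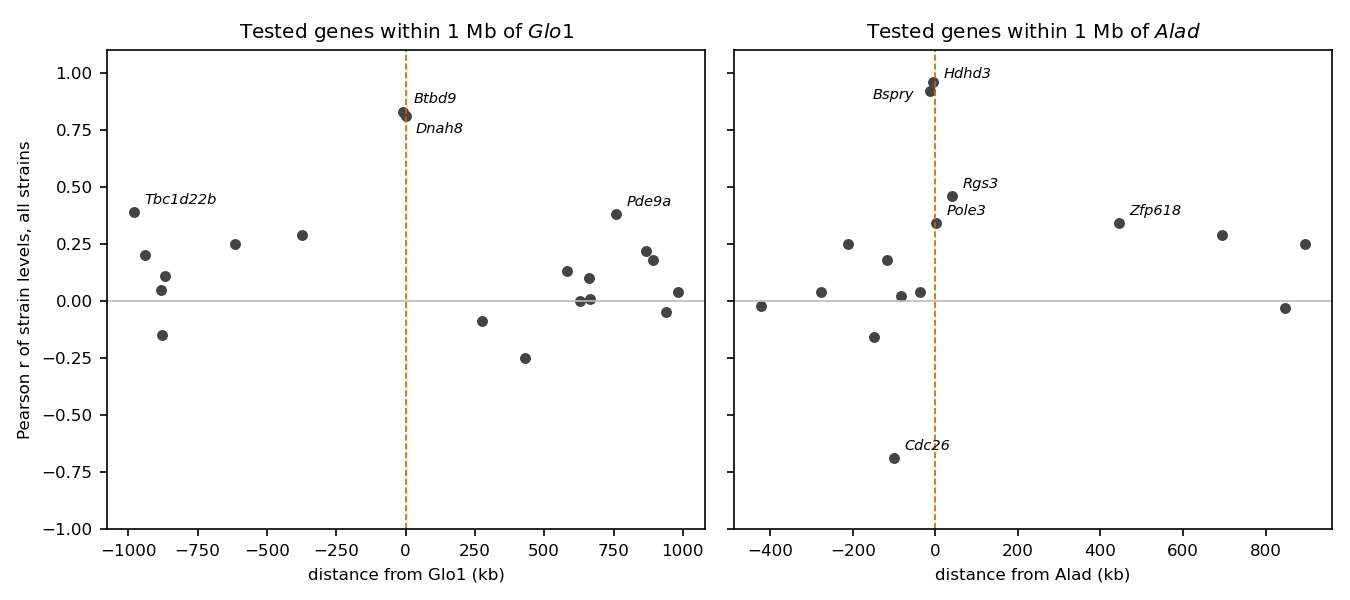
Pearson correlation of strain levels with Glo1 and with Alad on the y axis, over all strains, against distance from the gene in kb on the x axis. Each point is 1 tested gene within 1 Mb. Btbd9 and Dnah8 beside Glo1 reach 0.83 and 0.81, Hdhd3 and Bspry beside Alad reach 0.96 and 0.92, and Cdc26 is at -0.69.

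Between the parents, the neighbours of each gene differed with it or without it. Btbd9 was at 15.2 CPM in C57BL/6J and 15.5 CPM in BALB/cJ, and at 21.5 CPM in DBA/2J, 25.7 CPM in A/J and 23.3 CPM in C3H/HeJ. It was higher than in C57BL/6J by 0.51 ± 0.10, 0.78 ± 0.10 and 0.63 ± 0.10 log2 units in the last 3 of these (adjusted p = 3.2e-05, 6.9e-10 and 3.1e-07, edgeR's quasi-likelihood test with Benjamini-Hochberg adjustment) and differed by 0.04 ± 0.10 in BALB/cJ (adjusted p = 0.93). Btbd9, like the other genes named for their correlation, was chosen over strains that include these parents, so its calls are not independent of that choice. Dnah8 was at 0.702 CPM in C57BL/6J and at 2.81 CPM in BALB/cJ, 4.2 CPM in DBA/2J, 3.37 CPM in A/J and 2.94 CPM in C3H/HeJ, and passed in all 4 comparisons, BALB/cJ included (log2 2.03 ± 0.28, adjusted p = 1.6e-08). Its reads and those of Glo1 cannot be told apart where the genes overlap unless the counting used strand, which is not given in the sources used here.

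Over all genes tested, 5.28% were called higher and 4.8% lower than C57BL/6J in DBA/2J, 4.23% and 3.64% in A/J, 4.86% and 3.95% in BALB/cJ, and 5.01% and 4.22% in C3H/HeJ. Of the 20 tested genes within 1 Mb of Glo1, 2 were called in DBA/2J, 4 in A/J, 1 in BALB/cJ and 3 in C3H/HeJ, all higher than in C57BL/6J. The calls beyond Btbd9 and Dnah8 were Mdga1 in A/J and C3H/HeJ (log2 0.81 and 1.26) and Zfand3 in A/J (log2 0.26). Without the A/J female, the A/J differences of Mdga1 and Zfand3 were 0.76 and 0.21. Both A/J calls were lost without the C57BL/6J female (log2 0.74 and 0.25). The median log2 difference of the 20 was 0.03, 0.12, -0.03 and 0.00 in the same order, beside -0.01 over all genes in each comparison.

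Beside Alad, Hdhd3 was at 1.19 CPM in C57BL/6J and at 6.63 CPM in DBA/2J, 4.54 CPM in A/J, 3.66 CPM in BALB/cJ and 6.5 CPM in C3H/HeJ. Its log2 differences of 2.54 ± 0.27, 1.98 ± 0.27, 1.66 ± 0.27 and 2.52 ± 0.27 passed in all 4 comparisons, with a largest adjusted p of 2.3e-06 in BALB/cJ (edgeR's quasi-likelihood test with Benjamini-Hochberg adjustment). Bspry was also higher in all 4 parents, at 0.636 to 1.17 CPM against 0.0801 CPM in C57BL/6J, a level near the floor at which a fold is not given. Cdc26 was lower in all 4, with log2 differences of -0.50, -0.63, -0.51 and -0.42 from its 14.5 CPM in C57BL/6J, although on the TPM scale its difference was 0.02 in DBA/2J and in C3H/HeJ. The only other calls among the 16 genes were Wdr31, lower in A/J, and Whrn, lower in BALB/cJ (log2 -0.92 and -1.22). The Wdr31 difference was -0.75 without the A/J female. Its call was lost on log2(TPM + 1) and log2(TPM + 0.1) (log2 -0.31 and -0.48). The median log2 difference of the 16 was 0.06, -0.01, 0.09 and 0.12 in the order DBA/2J, A/J, BALB/cJ and C3H/HeJ.

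Calls among the other genes of both pathways were read against the shares of all genes called, 10.1% in DBA/2J, 7.87% in A/J, 8.81% in BALB/cJ and 9.22% in C3H/HeJ. Of 11 genes of methylglyoxal removal and glutathione synthesis, Gsr, glutathione reductase, was higher in DBA/2J and A/J (log2 0.52 and 0.49), and Hagh, the glyoxalase 2 gene, was lower in DBA/2J and BALB/cJ (log2 -0.59 in both). None of the 11 passed in C3H/HeJ. The Gsr difference in A/J was 0.44 without the A/J female, and that of Hagh in BALB/cJ was -0.39 without its male. Both calls were lost on log2(TPM + 1) (log2 0.75 and -0.34). The Hagh difference in DBA/2J was -0.60 without the DBA/2J male and -0.59 without the female. Its call was lost with library totals (log2 -0.30) and on log2(TPM + 1) (log2 -0.14). Median log2 differences of the list were -0.12, -0.00, 0.02 and -0.11 in DBA/2J, A/J, BALB/cJ and C3H/HeJ, beside -0.01 over all genes. Of 11 other genes of haem synthesis and breakdown, Ppox, protoporphyrinogen oxidase, was lower in A/J (log2 -0.65) and Blvra, biliverdin reductase A, was higher in C3H/HeJ (log2 0.53), and none passed in DBA/2J or BALB/cJ. The Ppox difference was -0.60 without the A/J female, and that of Blvra was 0.48 without the C3H/HeJ female. The call of Ppox was lost with library totals (log2 -0.48) and on log2(TPM + 1) (log2 -0.31). Medians of this list were 0.06, -0.11, -0.04 and 0.11 in the same order.

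Neither gene passed the test between the sexes over all libraries, nor with strain as a block over the strains with both sexes. Males averaged 99.9 CPM for Glo1 (SD 40.1, n = 98) and 71.4 CPM for Alad (SD 34), and females 95.5 CPM (SD 40.1, n = 89) and 70.3 CPM (SD 35.8). The log2 difference, male minus female, was 0.06 ± 0.08 SE for Glo1 (adjusted p = 0.62) and 0.02 ± 0.11 SE for Alad (adjusted p = 0.92) by edgeR's quasi-likelihood test with Benjamini-Hochberg adjustment, which 24.8% of genes passed (13.2% higher and 11.6% lower in males). The male was the higher in 41 of 78 strains for Glo1 and in 51 of 78 for Alad. Since male and female pair by strain, the test was repeated with strain as a block, and the difference was 0.02 ± 0.02 for Glo1 (adjusted p = 0.46) and 0.07 ± 0.04 for Alad (adjusted p = 0.13, edgeR's quasi-likelihood test). With the block and without the libraries that stood apart, a fit chosen after seeing the data, Alad was higher in males by 0.10 ± 0.02 log2 units (adjusted p = 0.0011, edgeR's quasi-likelihood test), in 47 of 69 strains, and Glo1 differed by 0.02 ± 0.02 (adjusted p = 0.43). The sign of the unblocked Alad difference depended on scaling, since log2(TPM + 1) and library totals each gave -0.07. A dependence of the sex difference on family, over the BXD, the AXB and BXA and the inbred strains, did not pass in either gene by edgeR's quasi-likelihood test with Benjamini-Hochberg adjustment (adjusted p = 1 for both, unadjusted p = 0.97 and 0.99), which 1 of the 15942 genes, or 0.00627%, passed. That fit had no strain term, so differences between strains were part of its residual spread and it had little power. With strain as a block, 0 genes passed.

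Male and female of a strain mostly lay close together. The median absolute difference was 0.1 log2 units for Glo1 and 0.17 for Alad. Differences above 0.5 were seen in 1 strain for Glo1, MA/MyJ (84 CPM in males and 57.7 CPM in the female), and in 8 strains for Alad. The widest for Alad were BXD73/RwwJ, at 86.4 CPM in the male and 198.2 CPM in the female, and RIIIS/J, at 58.3 CPM in the male and 121.1 CPM in the female. In all of these strains except BXD40/TyJ, at least 1 of the libraries was among the 15 that stood apart, and their part in these differences was not tested.

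Within both pathway lists, 5 genes were higher in males. They were Hagh, Akr1b3, an aldose reductase gene, and Gss, glutathione synthetase, of the 11 methylglyoxal and glutathione genes (log2 0.14, 0.09 and 0.09), and Fech, ferrochelatase, and Hmox2, haem oxygenase 2, of the 11 haem genes (log2 0.14 and 0.07). None of either list was lower in males, and the 3 of 11 and 2 of 11 called stand beside 24.8% of all genes called and 13.2% called higher. The list medians were 0.06 and 0.05 log2 units beside -0.01 over all genes. With strain as a block, Akr1b3 and Hmox2 did not pass (adjusted p = 0.079 and 0.071, edgeR's quasi-likelihood test). On the log2(TPM + 1) scale all 5 differences were between -0.05 and -0.01 and none passed.

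Levels of heart compartment markers were set beside both genes. Over all strains, the correlation of strain level with the mean of adipose markers was -0.25 for Glo1 and 0.07 for Alad. It was 0.05 and 0.00 with blood markers, 0.08 and 0.06 with atrial markers, and -0.09 and 0.12 with cardiomyocyte markers. Over single libraries, the mean of the adipose markers ranged from -3.23 to 5.75 log2 CPM and that of the blood markers from 2.31 to 9.45.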

How the data were processed

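Heart RNA of 106 mouse strains was sequenced from 187 mRNA libraries. Per the labels and the study's methods, the authors quantified reads with kallisto 0.46 against the GRCm38.p6 transcriptome and deposited estimated counts per gene and TPM, 2 tables of 36558 genes, of which 33.6% of the count values were not whole numbers (tolerance 0.001). TPM values are scaled by the authors to the library and to effective gene length. Libraries were made with a Nugen mRNA kit, and the study compared groups with DESeq2. Whether the quantification used strand is not given in the sources used here.

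From these, estimated counts were rounded, a filter on low counts (filterByExpr with sex as the group) left 15942 genes, and these were fitted with edgeR 4.0.16 (glmQLFit, glmQLFTest) in R 4.3.3 after TMM scaling. The strain fit used a sex term and a coefficient for each strain, over strains with both sexes (159 libraries), and gave the strain, within-family and parent tests. The sex test used all libraries and no strain term. Genes passed at a Benjamini-Hochberg adjusted p of 0.05 or less over all genes. Log2 CPM used a prior count of 2. In BXH, the test within the family used 2 strains. Standard errors are the log2 difference divided by the root of its F value, and alternatives to the strain fit reused its dispersion trend.

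Members were Glo1 and Alad. The named genes were these, genes within 1 Mb, the 5 genes with the highest correlation of strain levels, the lowest, and lists of 11 genes of methylglyoxal and glutathione metabolism and 11 of haem metabolism. A further gene of the haem list and the sequences of Glo1 and Gm13443 are not reported here. Members and lists were chosen with earlier results of these data known. Gene positions and the comparison of both transcripts are from GENCODE M21, which held 35935 of the 36558 gene IDs. Libraries were said to stand apart where the median absolute shift in effective gene length (count divided by TPM, genes with at least 50 counts) exceeded 0.06 log2 units, a limit set after seeing the data.

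Alternatives were RLE scaling, library totals, totals without mitochondrial genes, no filter, log2(TPM + 1) and log2(TPM + 0.1) with limma 3.58.1, blood and adipose covariates, DESeq2 1.42.0, strain as a block, leaving out each parent library, males or females only, and, chosen after seeing the data, leaving out the libraries that stood apart, also with strain as a block, and adding Gm13443 to Glo1. On simulated counts of 2000 genes, the fit recovered 74.5% of 200 genes changed by a log2 of 1 between DBA/2J and C57BL/6J, with 10 false calls. It recovered 100% of 200 genes changed by 0.6 between sexes, with 9 false calls. False calls were counted among the unchanged genes only. The number of libraries limits precision, and the standard errors include the spread between libraries.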

Additional observations from a re-analysis of the deposited data

How the results depend on the processing

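The main limits are the small number of libraries for each strain, the reads that Glo1 shares with Gm13443, and 15 libraries with shifted gene lengths. The strain effects over all strains and within the BXD, AXB and BXA, CXB and inbred strains passed for both genes under all 9 alternatives tried, as did Alad in all 4 parent comparisons and Glo1 in those of DBA/2J, A/J and C3H/HeJ under all 15. The TPM scales gave the largest of these differences, up to 1.44, 1.51 and 1.17 for Glo1 in DBA/2J, A/J and C3H/HeJ against 0.93, 1.24 and 0.78. Causes of the changes below were not tested.

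Leaving out each parent library in turn gave Glo1 differences of 0.87 to 0.99 in DBA/2J, 0.97 to 1.46 in A/J and 0.72 to 0.83 in C3H/HeJ, and Alad differences of 1.70 to 1.88, 1.54 to 1.73 and 1.73 to 2.14, with 1.49 to 1.68 in BALB/cJ. The count of genes called then ranged from 894 to 1365 in DBA/2J, 522 to 1082 in A/J, 649 to 1226 in BALB/cJ and 801 to 1342 in C3H/HeJ, lower than with all libraries (1607, 1254, 1404 and 1470). Glo1 in BALB/cJ, which never passed, ranged from -0.24 to 0.01 in these runs, was 0.06 with library totals and on both TPM scales, and was 0.03 with Gm13443 added.

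Of the other named genes called between parents, Gng10, Gsr, Hmga1, Mdga1, Ppox, Wdr31 and Zfand3 in A/J, Hagh and Gng10 in DBA/2J and BALB/cJ, Hmga1 and Ppil1 in DBA/2J, Hmga1 and Ptgr1 in BALB/cJ, Blvra in C3H/HeJ and Cdc26 in all 4 lost the call under at least 1 alternative.

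Within BXH, Glo1 did not pass on log2(TPM + 1) or log2(TPM + 0.1) (limma, adjusted p = 0.23 and 0.25). On these scales, genes called within a family numbered 1781 and 1649 in AXB and BXA, 6196 and 7381 in CXB and 272 and 273 in BXH. They called 2888 and 2606 genes in DBA/2J, 2572 and 2283 in C3H/HeJ, and 7081 and 6930 between the sexes. Cdc26 was 0.02 in DBA/2J and C3H/HeJ on both. Library totals gave 4033 genes within CXB. Without the libraries that stood apart, 7005 genes were called within AXB and BXA, 764 within BXH, 2559 in DBA/2J, 2103 in A/J, 2168 in BALB/cJ and 2363 in C3H/HeJ.

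The labels pair libraries by strain. With strain as a replicate block, the sex difference was 0.02 ± 0.02 for Glo1 (edgeR adjusted p = 0.46) and 0.07 ± 0.04 for Alad (adjusted p = 0.13), 4990 genes were called against 3954 without the block, and 0 genes against 1 for sex by family. Akr1b3 and Hmox2 no longer passed under the block. With strain as a replicate block and without the libraries that stood apart, Alad passed (0.10 ± 0.02, edgeR adjusted p = 0.0011), Glo1 did not (0.02 ± 0.02, adjusted p = 0.43) and 6449 genes were called. The unblocked sex difference changed sign in Glo1 with library totals (-0.01), on both TPM scales (-0.05) and with blood and adipose covariates (-0.01), and in Alad with library totals (-0.07), without mitochondrial genes (-0.01) and on the TPM scales (-0.07 and -0.08). It also did so on log2(TPM + 1) and log2(TPM + 0.1) for Akr1b3 (-0.04 on both), Fech (-0.02), Gss (-0.02 and -0.03), Hagh (-0.01) and Hmox2 (-0.05), and for Hmox2 with library totals (-0.02).

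In females alone, 15 AXB and BXA strains had a library, of which 4 were nearer A/J for Glo1 and 7 for Alad, and none changed sides. BXD9/TyJ changed sides for Alad in males alone, and BXD19/TyJ for both genes in females alone. The largest Glo1 step in log2 units, given here for settings that moved it by more than the within-strain SD, was 0.57 with library totals and 0.53 without the libraries that stood apart in BXD, 0.56 with library totals and 0.98 with Gm13443 added in AXB and BXA, 0.37 in males and 0.78 without the libraries that stood apart in CXB, 0.81 in males and in females and 0.74 with Gm13443 added in BXH, and 0.43 in males and 0.37 on the TPM scale in inbred strains. The largest Alad step was 0.48 in males and 1.26 without the libraries that stood apart in BXD, 1.28 in females, 1.19 on the TPM scale and 1.25 without the libraries that stood apart in AXB and BXA, 1.79, 0.64 and 1.69 under the same settings in CXB, 0.19 in females of BXH, and 0.93 in males of the inbred strains.

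Correlations with Glo1 moved to 0.73 by Spearman's rank, 0.92 on the TPM scale and 0.89 without the libraries that stood apart for Btbd9, and to 0.62 by rank and 0.68 in inbred strains alone for Dnah8. In inbred strains alone they were 0.35 for Gm13443 and 0.49 for BC004004. For Hmga1 they were -0.46 by rank, -0.42 on the TPM scale and -0.41 in inbred strains. With Alad, they were 0.87 by rank and 0.94 in inbred strains for Hdhd3, 0.77 by rank for Bspry, 0.43, 0.44 and 0.37 in inbred strains for Gng10, Gm18551 and Ptgr1, and -0.43 on the TPM scale and -0.83 without the libraries that stood apart for Cdc26.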
